A study of Mus musculus with 23 samples.

Results

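Hematopoietic stem cells (HSC) lacking p110δ were set directly against HSC lacking p110α, with no wild-type array in the contrast. The comparison used the 3 arrays titled p110δ-/- HSC and the 3 arrays titled p110α-/- HSC, 6 of the 23 arrays of the series. RNA had been isolated from cells of pooled mouse bone marrow transplant recipients and hybridised to Affymetrix Mouse Transcriptome Assay 1.0 arrays, which carry probe sets for coding and non-coding transcript clusters. The stem cell gate kept CD150-positive, CD48-negative and Flk2-negative cells among those that carried c-Kit and lacked lineage markers. The other groups were wild-type (WT) HSC, HSC lacking both isoforms (DKO), and the same 4 genotypes in lymphoid-primed multipotent progenitors (LMPP), which were Flk2-positive, CD150-negative and CD48-positive.

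The genotype of each group is given by the labels as p110δ-/- or p110α-/-, with no promoter, Cre line or age, and both groups share the transplant setting. Each of these groups held 1 female array and 2 male arrays, and in both of them replicate 2 was the female one. Replicate numbers follow the order of deposition and pair no samples. By the labelled sex, the female and the male arrays of a group are not repeats of the same sample. Whether the 2 male arrays stem from different recipient pools is not stated. The spread behind every p-value may therefore be technical in part, and it includes sex. The number of arrays limits the precision. In sorted bulk RNA, fewer cells of a type and less RNA per cell cannot be told apart. Pik3ca and Pik3cd, the genes of the 2 isoforms, and the genes of the sort markers were not analysed here, so neither knockout was checked at its targeted gene. Of the stem cell markers, 3 could be measured (Vwf, Tek and Selp). Their mean log2 level was 10.80, 9.96 and 10.48 on the p110α-/- arrays and 10.57, 10.54 and 10.93 on the p110δ-/- arrays, with overlapping groups.

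Class I phosphoinositide 3-kinases make the membrane lipid PIP3 after growth factor and cytokine receptors are engaged, and PIP3 recruits AKT and other effectors. p110α is expressed widely and is the main isoform downstream of insulin and many receptor tyrosine kinases. p110δ is enriched in leukocytes and their progenitors, where it signals from cytokine, antigen and Toll-like receptors. AKT in turn restrains the FOXO transcription factors, which keep stem cells quiescent and resistant to stress.

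Values are log2 RMA expression values, so a difference of 1 is a 2-fold change on the linear scale, and differences are p110δ-/- minus p110α-/-. The fit covered 32978 transcript clusters and gave an adjusted p for each from limma with Benjamini-Hochberg adjustment, with a call at an adjusted p below 0.05. A single cluster was called, 0.00303% of those tested. At an unadjusted p below 0.05 there were 2506 clusters, 7.60% of those tested, of which 1515 were higher (4.59%) and 991 lower (3.01%) in p110δ-/- HSC. The share of higher clusters among these was 60.5%, and it was 40.6% with each array centred on its median and 48.2% after a further quantile normalisation, so no direction held for the sum of clusters. The 2 groups of 3 arrays did not overlap at 4009 clusters, 12.2%. The median difference over all clusters tested was -0.0047 and their SD was 0.34.

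The called cluster, TC0400001906.mm.1 on chromosome 4, carries no gene name in the authors' tables. Its log2 values were 10.05, 9.64 and 8.67 on the p110δ-/- arrays and 5.01, 5.79 and 5.50 on the p110α-/- arrays. The lowest p110δ-/- array lay far above the highest p110α-/- array. The difference was 4.02 ± 0.38 (SE, n = 3 and 3 arrays), 16.2-fold, with a limma adjusted p of 0.0212. The WT arrays stood at 5.19, 5.73 and 4.82 and the DKO arrays at 9.42, 8.94 and 9.92, so the cluster was high on every HSC array of a genotype without p110δ and low on every array with it. In LMPP the same contrast gave 3.84 ± 0.56 (adjusted p 0.0211). By the order of cluster numbers it lies between the named clusters of Dhrs3 and Fv1, and in RefSeq gene order Pik3cd lies between Srm and Vamp3 on the same chromosome. The difference was at least 3.72 under every alternative run, whereas the call was lost, at an adjusted p of 0.239, when only the 6 arrays entered the fit. It was also lost without p110δ-/- replicate 1 (0.136) or 2 (0.114), p110α-/- replicate 1 (0.184) or 3 (0.172), WT replicate 1 (0.0597) or DKO replicate 1 (0.0783).

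Gene names come from the authors' 6 tables of knockout against WT, which were selected on the same arrays, so a named gene is not independent evidence of its direction. Of 276 named genes tested, none was called, 22 had an unadjusted p below 0.05 (12 higher and 10 lower) and 33 had groups that did not overlap, 12 higher and 21 lower. These counts stand against 7.60% and 12.2% of all clusters. A difference of at least 1.5-fold with no overlap was found for 22 genes, 7 higher and 15 lower, and the genes described next were chosen by that separation. Across all clusters 6.76% did not overlap in the higher and 5.39% in the lower direction, with no condition on the fold. The share of all clusters that met both conditions was not computed, so nothing is read from the split of 7 and 15. The 6 genes Polg2, Clcn6, Rab6b, Ptgs2, Nr4a1 and Klf4 come from the table of p110δ-/- HSC, and Ms4a3 and Ly6c2 from that of p110α-/- HSC. A further 5 come from the table of p110α-/- LMPP, whose average signals were matched in 100% of entries only with p110α-/- HSC replicate 2 in place of p110α-/- LMPP replicate 3. The other 9 come from tables that used none of the 6 arrays.

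Early response genes had lower values in p110δ-/- than in p110α-/- HSC, without a call. Nr4a1, an orphan nuclear receptor induced within minutes of receptor signalling and linked to stem cell quiescence, had log2 values of 15.90, 16.42 and 15.45 in p110δ-/- and 17.98, 17.10 and 17.13 in p110α-/- HSC. All p110δ-/- arrays lay below all p110α-/- arrays. The difference was -1.48 ± 0.38 (SE), a 2.79-fold lower level, with an adjusted p of 0.367. WT arrays stood at 17.33, 17.90 and 16.73 and DKO arrays at 15.78, 16.30 and 15.25, so the p110α-/- arrays overlapped the WT arrays and the p110δ-/- arrays overlapped the DKO arrays. Klf4, a Kruppel-like transcription factor, stood at 12.56, 12.71 and 12.60 against 14.27, 12.75 and 13.81. The groups were separated by a narrow gap, since p110α-/- replicate 2 lay just above the p110δ-/- values. Sik1, a salt-inducible kinase whose transcript follows cAMP signalling, stood at 14.46, 14.78 and 13.73 against 16.17, 15.37 and 14.94, a difference of -1.17 ± 0.43 (adjusted p 0.553). Of the list of immediate early and Kruppel-like genes, 3 members were measured and none was called. All 3 had negative differences, with a median of -0.99, and Klf2 was at -0.14.

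The Nr4a1 promoter is shown because matches to the core motif of the cAMP response element can be read in it directly. A part of cAMP signalling in the differences was not tested. The 250 bases before its start (RefSeq, GRCm38.p6, chr15:101266596-101266845, plus strand) are given 5′ to 3′, with the motif TGACG or its reverse complement CGTCA in capitals.
Nr4a1 promoter: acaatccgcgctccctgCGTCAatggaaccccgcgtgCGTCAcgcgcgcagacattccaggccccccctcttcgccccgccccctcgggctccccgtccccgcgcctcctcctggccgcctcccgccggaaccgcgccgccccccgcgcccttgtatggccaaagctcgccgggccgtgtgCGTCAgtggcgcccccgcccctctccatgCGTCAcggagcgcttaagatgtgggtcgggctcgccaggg
The window holds 4 matches, all in the reverse orientation. Searched on both strands, the motif occurred in 17.8% of 32851 promoters, and in a promoter of 19.8% of 27025 genes. Of the 15 lower genes, 12 had a promoter entry and 5 of these, 41.7%, held the motif (Klf4, Mex3b, Nr4a1, Snx12 and Tnfaip3). Sik1 is not among the 5. Of the higher genes 3 of 6, 50.0%, held it (Clcn6, Polg2 and Zfp748). A match describes the letters of the window and is not a measured site.

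Genes of prostaglandin, interleukin-1 and NF-κB signalling mostly had lower values, again without a call. Ptgs2, which encodes cyclooxygenase-2, the inducible enzyme of prostaglandin synthesis, had log2 values of 8.23, 8.52 and 8.29 in p110δ-/- and 9.67, 9.65 and 9.21 in p110α-/- HSC. The arrays within each group lay close together and the groups were well apart. The difference was -1.17 ± 0.23 (SE), 2.25-fold, with a 95% interval of -1.68 to -0.66 and an adjusted p of 0.230. WT arrays stood at 9.91, 9.61 and 9.30, level with p110α-/- HSC, and DKO arrays at 8.21, 9.05 and 8.66. Tnfaip3, which encodes A20, an inhibitor of NF-κB activation, stood at 11.06, 11.04 and 10.46 against 12.08, 11.26 and 11.43. Plaur, the urokinase receptor, stood at 8.64, 9.44 and 8.09 against 11.75, 10.0005 and 9.30. Plaur groups overlapped, because p110δ-/- replicate 2 lay above p110α-/- replicate 3. Its difference was -1.63 ± 0.61 (adjusted p 0.571). Il1r2, the decoy receptor for interleukin-1, differed by -0.86 ± 0.49 (adjusted p 0.755), and its level was at or below 5.52 on the p110δ-/- arrays and 7.43 on p110α-/- replicate 1. Of 9 measured members of this list none was called and 8 had negative differences, as had 50.9% of all clusters. The member that went the other way was Il1r1, an interleukin-1 receptor. The list median was -0.58. Without p110α-/- replicate 1 that median was -0.20.

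Feedback inhibitors showed negative differences in all 3 measured members, with a median of -0.79 and no call. Bambi, a decoy receptor that dampens TGF-β signalling, stood at 7.05, 6.01 and 6.38 against 8.13, 7.40 and 7.49, a difference of -1.19 ± 0.38 (adjusted p 0.490). Dusp4, a phosphatase of ERK, differed by -0.78 ± 0.37 and Spry2, an inhibitor of receptor tyrosine kinase signalling, by -0.79 ± 0.39. Both had overlapping groups, and neither passed the test (adjusted p 0.685 and 0.694).

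Stress and metabolic response genes were led by Cdkn1a and Irs2. Cdkn1a encodes p21, the cyclin-dependent kinase inhibitor induced by p53 and by FOXO factors, and stood at 10.57, 10.25 and 9.29 in p110δ-/- against 13.09, 10.80 and 10.65 in p110α-/- HSC. The groups did not overlap, but p110α-/- replicate 1 was more than 2 log2 units above the other arrays of its group. The difference of -1.48 ± 0.78 (adjusted p 0.721) was -0.69 without that array. Irs2, the insulin receptor substrate that couples receptors to class I PI3K and is a known FOXO target, stood at 11.94, 12.57 and 10.61 against 14.42, 13.13 and 11.59. Its groups overlapped, with a difference of -1.34 ± 0.70 (adjusted p 0.718) that was -0.65 without p110α-/- replicate 1. Fosl2, a subunit of the AP-1 transcription factor, gave -1.44 ± 0.80 and -0.59 without it.

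Of 9 measured p53 and stress-response genes, 7 had negative differences, with a median of -0.14 that turned to 0.02 without p110α-/- replicate 1. Sesn1, a sestrin that lowers mTORC1 activity, went the other way at 0.36 ± 0.21 (adjusted p 0.767). Of 7 FOXO target genes, 3 had positive and 4 negative differences, with a median of -0.14 (0.09 without that array). The insulin, PI3K and mTOR list had 5 measured members, with a median of 0.02 that became -0.04 after quantile normalisation and -0.07 with arrays centred on their median. Irs2 was its lowest member and Insr, the insulin receptor, its highest at 0.26. None of these lists held a call or a member with an unadjusted p below 0.05, a threshold that 7.60% of all clusters passed.

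Other genes of the lower set differ in their known roles. Rab6b, a small GTPase of Golgi transport, had the smallest p of the 22 genes, and stood at 5.26, 4.96 and 4.89 against 6.07, 6.01 and 5.70. The groups were apart, with a difference of -0.89 ± 0.15 and an adjusted p of 0.201. The p110δ-/- values lie close to the level of log2 4.95 below which clusters were left out, so this gene was near the lower end of the measured range. Tiparp, a mono-ADP-ribosyltransferase, differed by -1.22 ± 0.54. Its value on p110α-/- replicate 1, 13.73, lay above the 12.27 and 11.98 of the others, and the difference was -0.69 without that array. Wdr5b (-0.82), Cyb5b (-0.81), Snx12 (-0.73), Vamp3 (-0.62), Mex3b (-0.62) and Ear1 (-0.61) completed the set, none with an adjusted p below 0.521.

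**Figure D1:**
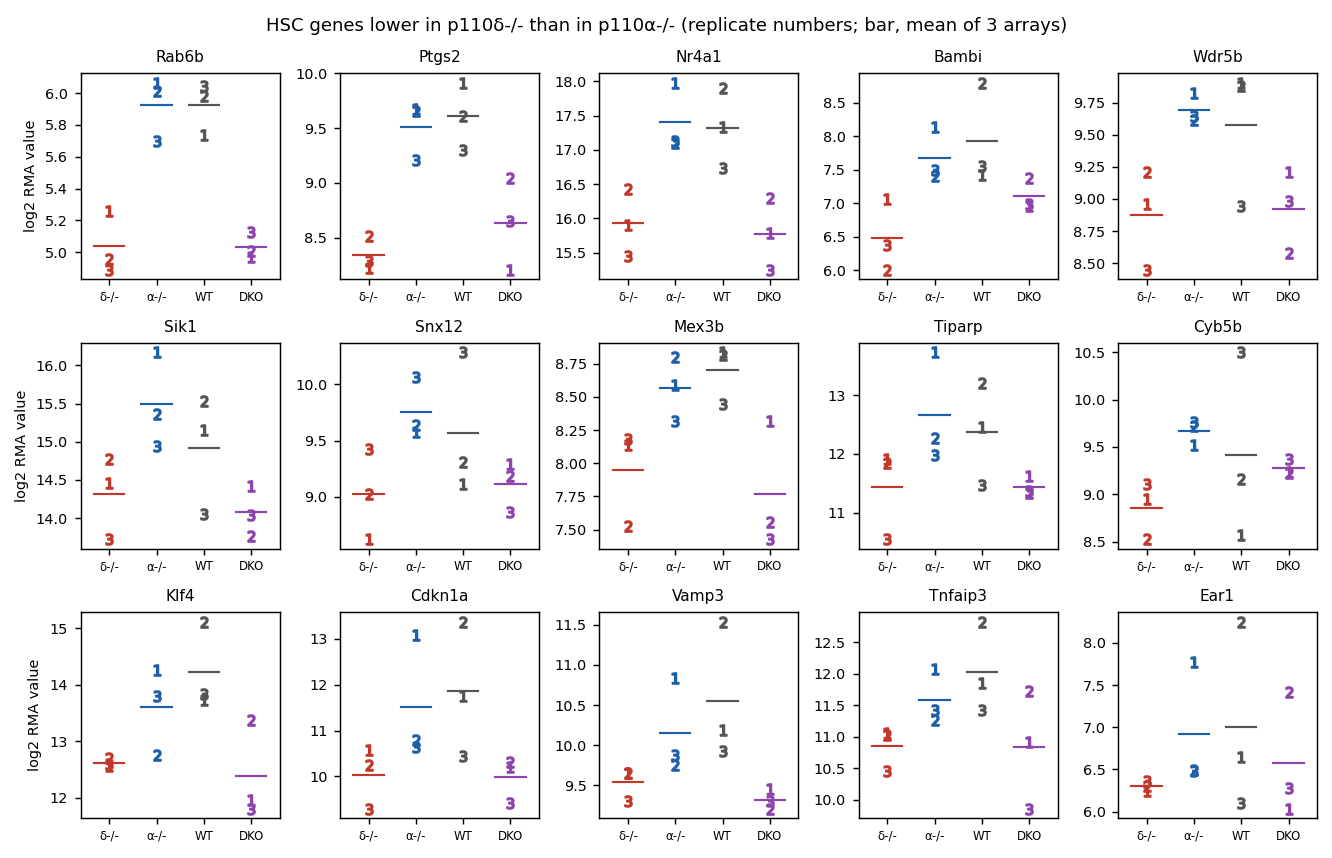
Log2 RMA values of the 15 genes lower in p110δ-/- (δ-/-) than in p110α-/- (α-/-) HSC, with WT and DKO HSC beside them. Each numeral is 1 array drawn as its replicate number, bars are group means, and each panel has its own axis that does not start at 0; the 2 single knockouts do not overlap in any panel, and p110α-/- replicate 1 is the highest of their 6 arrays in 12 of the 15.

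In the 15 lower genes p110α-/- replicate 1 was the highest of the 6 arrays in 12. Over all clusters, the mean correlation of that array with the other HSC arrays was the lowest of the 6, at 0.980 in a range of 0.980 to 0.985. Among all 12 HSC arrays WT replicate 3 was lower, at 0.973. A correlation over all clusters does not show how an array behaves at 15 genes. Of the 6 arrays p110α-/- replicate 1 had the lowest mean log2 level of 7 neutrophil and granulocyte markers, 6.30. Its mean of the HSC markers, 10.80, was the highest of the p110α-/- arrays. The part of this array in the differences is given by the values without it. Nr4a1 then differed by -1.19 and Ptgs2 by -1.09. A larger share of the difference was lost for Cdkn1a, Irs2, Fosl2, Tiparp, Plaur (-0.93), Klf4 (-0.66), Tnfaip3 (-0.49), Il1r2 (-0.25), Vamp3 (-0.28) and Ear1 (-0.18). The WT mean lay nearer the p110α-/- than the p110δ-/- mean for 15 of the 15 genes, and the DKO mean nearer the p110δ-/- mean for 13. For the 7 higher genes WT lay nearer p110α-/- in 4 and nearer p110δ-/- in 3, and DKO nearer p110δ-/- in 6. The selection builds in part of this, since Rab6b, Ptgs2, Nr4a1 and Klf4 owe their names to the comparison of p110δ-/- HSC with WT. Nr4a1, Mex3b and Clcn6 are named in that of DKO HSC. Of the higher genes, Polg2 and Clcn6 are named in the comparison of p110δ-/- HSC with WT. The share over all clusters was not computed. These are levels set side by side and were given no test.

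Genes with higher values in p110δ-/- HSC included genes of early myeloid progenitors, none of them called. Ms4a3, a tetraspan membrane protein that marks granulocyte-monocyte progenitors, had log2 values of 7.15, 7.88 and 6.92 in p110δ-/- and 5.14, 5.52 and 5.59 in p110α-/- HSC. The groups were more than 1 log2 unit apart. The difference was 1.902 ± 0.71 (SE), 3.74-fold, with an adjusted p of 0.568. WT arrays stood at 7.42, 8.33 and 6.26, level with the p110δ-/- arrays and above the p110α-/- arrays. Ms4a3 owes its name to the authors' comparison of p110α-/- HSC with WT on these arrays. The gap between p110α-/- and WT was therefore built in by the selection. Ly6c2, a surface antigen of monocytes and their progenitors, stood at 7.61, 12.73 and 7.79 against 6.77, 7.04 and 6.48. A single array, p110δ-/- replicate 2, carried most of the difference of 2.61 ± 1.41 (adjusted p 0.729), which was 0.94 without it. Cebpe, the third measured gene of this list, differed by 0.05 and turned negative with arrays centred on their median. Atp8b4, a phospholipid-transporting ATPase, stood at 5.33, 6.67 and 5.58 against 5.02, 5.13 and 4.92, again with p110δ-/- replicate 2 highest.

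Neutrophil and granulocyte markers also varied between the arrays, and their mean ranked the arrays in another order than Ms4a3, itself a member, did. The mean log2 level of the 7 measured neutrophil and granulocyte markers out of 10, which include Ms4a3, was 6.43, 9.23 and 8.04 on the p110δ-/- arrays and 6.30, 8.64 and 7.10 on the p110α-/- arrays. The groups overlapped, and the female arrays, replicate 2 of each group, were highest. Ltf, a secondary granule protein, ranged from 5.20 to 8.85 over the 6 arrays. The part of granulocyte RNA in the Ms4a3, Ly6c2 and Atp8b4 differences was not tested. Of 11 neutrophil granule genes, 7 had positive differences with a median of 0.13, which was -0.17 without p110δ-/- replicate 2 and -0.22 without p110α-/- replicate 1. Ctsg, cathepsin G, was highest among them at 0.75 ± 0.72. The 9 calprotectin and innate receptor genes had a median of -0.01, with 4 positive differences and Plaur as the lowest member. That median was -0.87 with 8 negative differences without p110δ-/- replicate 2, -0.25 with 8 without p110α-/- replicate 1, -0.28 with 6 without p110δ-/- replicate 3 and -0.45 with 7 under array weights. Mean levels of 2 macrophage markers (4.61 to 4.73) and of 1 B lymphoid marker, Jchain (4.62 to 4.98), were near or below the level filter on all 6 arrays, and those of 2 mast cell and basophil markers ran from 5.66 to 6.81.

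Polg2 had the highest difference of the 7 genes after Ly6c2. It encodes the accessory subunit of the mitochondrial DNA polymerase and stood at 10.59, 10.96 and 11.71 in p110δ-/- against 8.56, 9.11 and 9.67 in p110α-/- HSC. The groups did not overlap and the difference was 1.97 ± 0.52, 3.93-fold, with an adjusted p of 0.371. WT arrays at 10.44, 9.47 and 9.51 and DKO arrays at 9.72, 11.61 and 9.88 lay between and across both groups. Zfp748, a zinc finger protein, differed by 1.09 ± 0.32 (adjusted p 0.460).

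Clcn6, a chloride-proton exchanger of late endosomes, is on chromosome 4, as is Vamp3, a vesicle SNARE of the lower set. Clcn6 stood at 9.83, 9.96 and 10.07 against 9.33, 9.19 and 9.53, with WT at 8.79, 9.56 and 8.79 and DKO at 10.25, 9.98 and 9.72. All Clcn6 arrays of the 2 genotypes without p110δ lay above all arrays of the 2 genotypes with it. Clcn6 owes its name to the authors' comparisons of p110δ-/- HSC and of DKO HSC with WT. It was then kept because the single knockouts did not overlap. The selection thus builds in part of this separation, and nothing is read from it. Vamp3 stood at 9.66, 9.65 and 9.30 against 10.84, 9.75 and 9.87. Of 2214 clusters tested on chromosome 4, 222 had an unadjusted p below 0.05 (103 higher and 119 lower), beside 7.60% over all clusters. Outside chromosome 4, the higher unnamed cluster with the smallest p was TC1700000976.mm.1 at 1.165 ± 0.16 (adjusted p 0.182). Among the lower unnamed clusters TC0900001725.mm.1, at -1.05 ± 0.17 (adjusted p 0.188), came next after Gm5945 by p. Chromosome X had the highest share, 10.6%, with 52 clusters higher and 126 lower in p110δ-/- HSC, among them the predicted gene Gm5945 at -1.65 ± 0.26 (adjusted p 0.188).

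**Figure D2:**
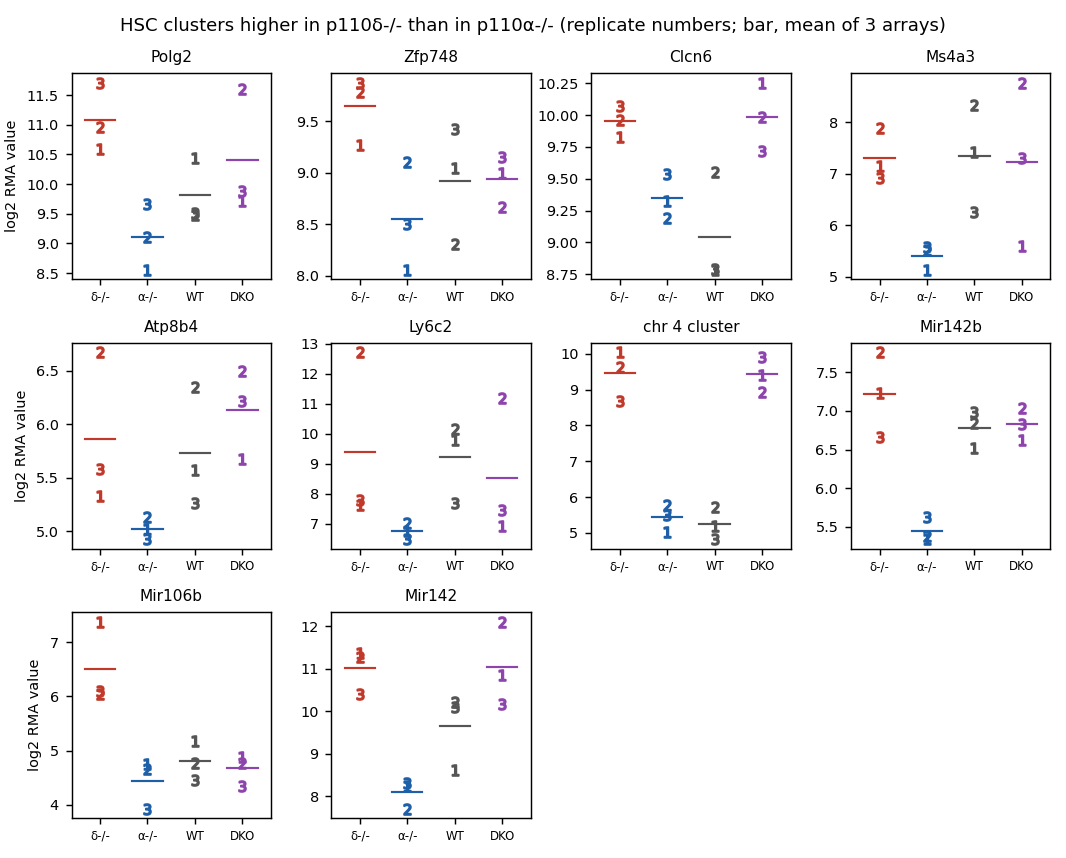
Log2 RMA values of named genes higher in p110δ-/- (δ-/-) than in p110α-/- (α-/-) HSC, of the called chromosome 4 cluster and of 3 microRNA clusters. Each numeral is 1 array drawn as its replicate number and bars are group means; axes differ between panels and do not start at 0. The chromosome 4 cluster lies between 8.67 and 10.05 on all p110δ-/- and DKO arrays and at or below 5.79 on all p110α-/- and WT arrays.

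MicroRNA clusters were looked at after their values had been seen, since several lay among the smallest p-values. The array measures the precursor or host transcript of such a locus and not the mature strands. Of 37 microRNA clusters tested, 12 had an unadjusted p below 0.05, against 7.60% of all clusters, and 12 of these 12 were higher in p110δ-/- HSC. None was called. The 37 are those listed in the authors' tables. The tables of p110δ-/- or p110α-/- HSC against WT, which were selected on these arrays, list 13 of the 37 and 10 of the 12. Of the other clusters, the table of p110α-/- LMPP lists 11, 1 of them among the 12, and the remaining 13 hold the last of the 12. The count of 12 is therefore no independent evidence, and nothing is read from it against 7.60%. The mature RNAs of the loci described here are shown so that the seeds can be compared (RefSeq, GRCm38.p6, 5′ to 3′, with the seed, bases 2 to 8, in capitals).
mmu-miR-142a-5p, chr11:87756867-87756887, plus strand: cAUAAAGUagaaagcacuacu
mmu-miR-142a-3p, chr11:87756903-87756925, plus strand: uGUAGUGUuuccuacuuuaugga
mmu-miR-142b, chr11:87756906-87756925, minus strand: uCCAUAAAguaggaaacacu
mmu-miR-106b-5p, chr5:138165787-138165807, minus strand: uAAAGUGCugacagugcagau
mmu-miR-98-5p, chrX:151913229-151913250, plus strand: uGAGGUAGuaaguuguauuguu
mmu-miR-181b-5p, chr2:38853845-38853868, plus strand: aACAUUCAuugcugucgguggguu
These 6 RNAs have 6 different seeds. The miR-98 seed, that of the let-7 family, is shared by 11 mature RNAs of the table, the miR-106b seed by 7 and the miR-181b seed by 4.

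Mir142, a locus expressed in blood cells, had log2 values of 11.38, 11.27 and 10.40 in p110δ-/- and 8.25, 7.71 and 8.31 in p110α-/- HSC. The groups were more than 2 log2 units apart. The difference was 2.92 ± 0.53 (SE), 7.58-fold, with an adjusted p of 0.211. WT arrays, at 8.62, 10.21 and 10.10, lay between the groups and DKO arrays reached 10.86, 12.10 and 10.18. Mir142b, read from the opposite strand of the same hairpin locus, stood at 7.23, 7.76 and 6.66 against 5.34, 5.38 and 5.63 (1.76 ± 0.25, adjusted p 0.182). Its WT and DKO arrays, at 6.52 to 7.04, stood nearer to p110δ-/- HSC. The host transcript Mir142hg differed by 1.49 ± 0.41 (adjusted p 0.404). The hairpins of Mir142 (chr11:87756864-87756927) and Mir142b (chr11:87756841-87756955) overlap in the genome, so these clusters are not independent of each other. Both names come from the authors' table of p110α-/- against WT HSC.

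Mir106b, of the cluster within Mcm7 that is related to miR-17, stood at 7.38, 6.05 and 6.11 against 4.74, 4.66 and 3.93. The groups did not overlap and the difference was 2.07 ± 0.36, with an adjusted p of 0.211. The WT (4.46 to 5.18) and DKO (4.35 to 4.88) arrays lay with the p110α-/- arrays, so this cluster was high only on the p110δ-/- arrays among the 12 HSC arrays. The p110α-/- values lie below the level of log2 4.95 used as the filter, as do the WT and DKO means of 4.81 and 4.67, and the size of the difference is limited by that. Mir181b-2 stood at 6.29, 6.18 and 5.95 against 5.27, 5.35 and 4.93, and Mir98 at 5.96, 5.96 and 6.09 against 5.29, 5.11 and 5.36. Their differences were 0.95 ± 0.26 and 0.75 ± 0.20 (adjusted p 0.394 and 0.388).

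Stem cell and cell cycle genes did not pass the test. Vwf, a marker of platelet-biased stem cells, stood at 9.79, 9.36 and 10.41 in p110δ-/- against 9.62, 8.55 and 9.08 in p110α-/- HSC. The groups overlapped and the difference was 0.77 ± 0.35 (adjusted p 0.661). Sytl5 differed by 0.57, Tek, the angiopoietin receptor, by 0.18 and Selp, P-selectin, by -0.15. Of 8 HSC identity genes 6 had positive differences, with a median of 0.12, and 4 did with arrays centred on their median. The median was -0.11, with 3 positive and 5 negative differences, without p110α-/- replicate 3, and -0.04, with 4 of each, without p110δ-/- replicate 2. Vwf differed by 0.49 without p110δ-/- replicate 3 and by 0.51 without p110α-/- replicate 2. Sytl5 differed by 0.21 without p110δ-/- replicate 2 and by 0.22 without p110α-/- replicate 3.

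The 9 measured S phase and G2/M genes all had positive differences, with a median of 0.53 against -0.0047 over all clusters, of which 49.1% were positive. None was called, and none had an unadjusted p below 0.05. Kif11, a motor of the mitotic spindle, stood at 11.57, 10.89 and 12.60 against 10.07, 11.51 and 11.45. Bub1, a spindle checkpoint kinase, stood at 8.59, 8.21 and 9.76 against 7.74, 8.86 and 8.37. In both genes p110δ-/- replicate 3 was highest and p110α-/- replicate 1 lowest, and the groups overlapped. Without p110α-/- replicate 1 the list had 6 positive and 3 negative differences with a median of 0.09, and without p110δ-/- replicate 3 it had 5 and 4 with a median of 0.08. Cdc6 (0.52), Aspm (0.57) and Ect2 (0.67) followed the same pattern of high and low arrays.

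Interferon and cytokine genes (4 measured, median 0.04), leukocyte integrins (7, median 0.02), lysosome and vesicle genes (4, median 0.30) and mast cell and eosinophil genes (4, median -0.21) held no call and no unadjusted p below 0.05. The lists with fewer than 3 measured members were those of immunoglobulin, lymphoid, erythroid and megakaryocyte, macrophage and dendritic, and endothelial genes, also without a call. No mitochondrial gene and no sort marker of the lists could be measured.

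**Figure D3:**
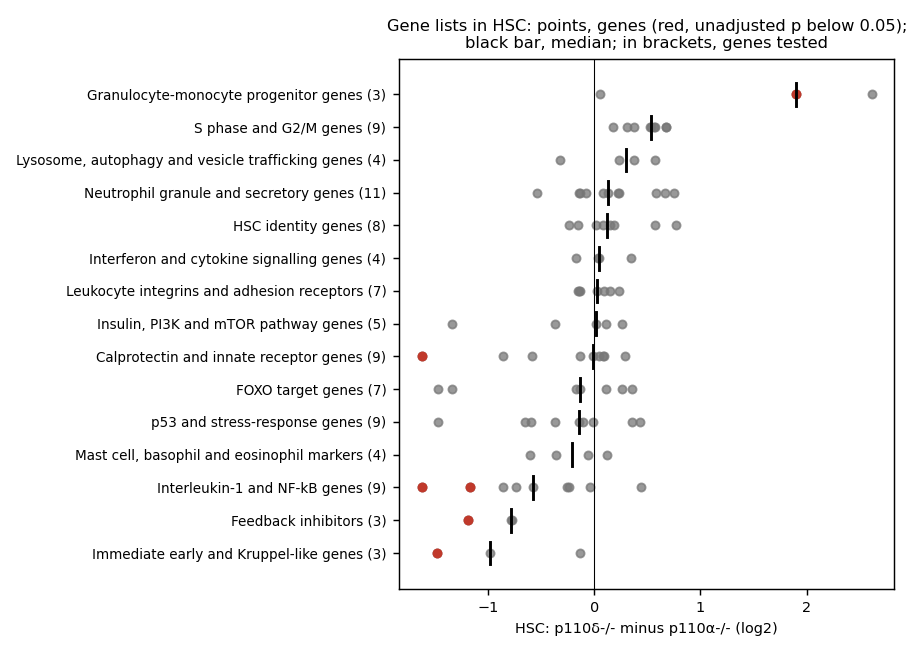
Difference between p110δ-/- and p110α-/- HSC (log2, horizontal axis) for each measured gene of the 15 lists with at least 3 such genes, ordered by list median (black bars). Genes with an unadjusted p below 0.05 are red. The medians run from -0.99 for immediate early and Kruppel-like genes to 1.902 for granulocyte-monocyte progenitor genes, and genes of several lists appear in each of them.

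The same contrast in LMPP gave 138 calls, 0.418% of the 32978 clusters, of which 3 (0.00910%) were higher in p110δ-/- LMPP, and 5.75% of clusters had an unadjusted p below 0.05. That count was 0 or 1 without p110δ-/- LMPP replicate 1, 2 or 3 or p110α-/- LMPP replicate 2 or 3. The difference between HSC and LMPP was tested in a fit of all 23 arrays and gave 1 call, Trem1 (0.00303% of clusters). It had 1443 clusters with an unadjusted p below 0.05, 4.38%. Trem1, a receptor that amplifies innate responses of myeloid cells, stood at 5.36, 5.61 and 5.33 in p110δ-/- and 5.38, 5.50 and 5.83 in p110α-/- HSC. These HSC values lie near the filter level of log2 4.95, so a lower level in either HSC group could hardly show. In LMPP Trem1 stood at 6.74, 7.14 and 6.42 in p110δ-/- and 10.75, 11.40 and 12.33 in p110α-/- cells. The contrast was thus -0.13 ± 0.32 in HSC and -4.73 ± 0.47 in LMPP, and the difference between these was 4.59 (adjusted p 0.0158). That call was lost, with adjusted p-values of 0.0608 to 0.0924, when p110δ-/- HSC replicate 1, 2 or 3, p110α-/- HSC replicate 1 or 2, p110δ-/- LMPP replicate 1 or 3 or p110α-/- LMPP replicate 2 was left out, while the difference was at least 4.18 under every alternative run. Neutrophil granule genes had a median difference of 0.13 in HSC and of -4.98, with 1 call, in LMPP. Their median level in p110α-/- HSC was 5.52, also near the filter level. No list was tested for the difference between cell types.

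Of the 22 named genes, 18 had the same direction in LMPP and 10 of these did not overlap there, while none was called in LMPP. The share of all clusters whose LMPP groups did not overlap was not computed, so nothing is read from the 10. Nr4a1 differed by -1.48 ± 0.43 in LMPP and Ptgs2 by -1.17 ± 0.28, nearly the HSC values, and the differences between the cell types were 0.00 for both (adjusted p 0.999). Polg2 differed by 1.28 in LMPP, Zfp748 by 0.91, Clcn6 by 0.42 and Cdkn1a by -1.77. The genes with the opposite direction were Wdr5b (0.23), Ms4a3 (-2.64), Atp8b4 (-1.09) and Ly6c2 (-2.12). For Ms4a3 the difference between cell types was 4.54 and for Ly6c2 4.73, neither of which passed the test (adjusted p 0.455 and 0.889). Of the clusters with an unadjusted p below 0.05 in HSC, 68.9% had the same sign in LMPP, beside 55.9% of all clusters tested. The HSC and LMPP contrasts share no array, but the labels do not say whether both cell types came from the same pools.

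**Figure D4:**
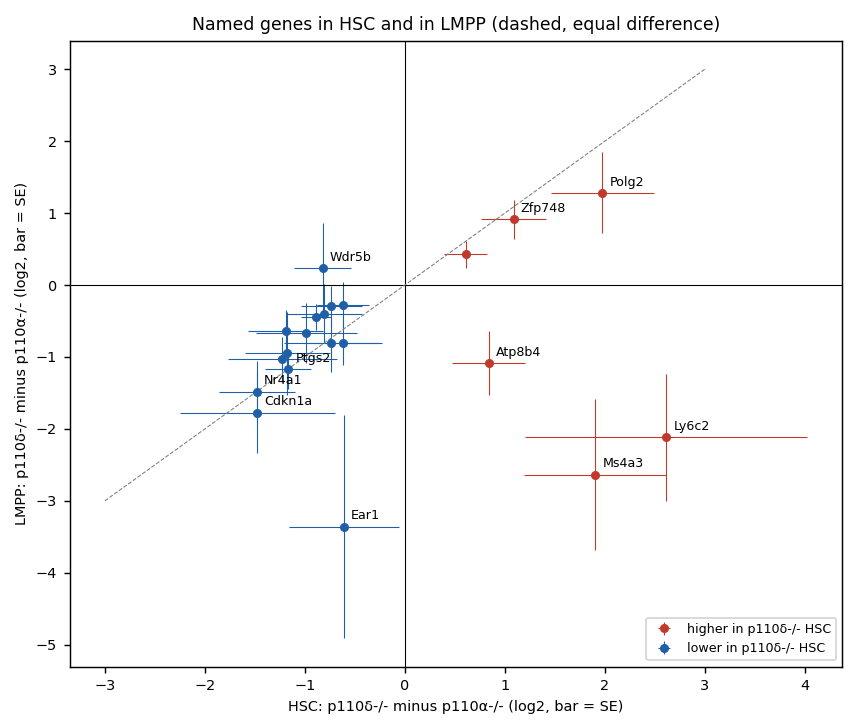
Difference between p110δ-/- and p110α-/- cells (log2) of the named genes described in the text, in HSC (horizontal axis) and in LMPP (vertical axis), with SE bars. Genes were chosen on the HSC axis only; Nr4a1 and Ptgs2 lie on the dashed line of equal differences, Ms4a3, Ly6c2, Atp8b4 and Wdr5b have opposite signs, and the other genes shown lie in the quadrants of equal sign.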

How the data were processed

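Per the labels, the deposited log2 values are RMA output of the authors' Expression Console run, 1 per transcript cluster and array. The submitters' processing notes also name Transcriptome Analysis Console. Their versions, the genome build and the annotation release were not given in the sources used here. Per the file headers, the authors' 6 deposited comparison tables hold log2 average signals, a linear fold change and p-values, and were used for names and to rebuild their averages. The 2 tables of overlapping genes were not used.

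Of 72688 rows, 6732 array controls were left out, and the 32978 clusters at or above the median level over 23 arrays (log2 4.95) were tested. limma 3.58.1 (lmFit, eBayes) in R 4.3.3 was fitted to the 12 HSC arrays with 1 mean per genotype, so WT and DKO arrays entered only the shared spread. LMPP (11 arrays) were fitted alike, and the difference between cell types on 23 arrays. P-values were adjusted by Benjamini-Hochberg across the tested clusters. Figures used Python 3.11.15 and matplotlib 3.10.9.

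Members, lists and tests were chosen with earlier results of these data known. A named gene has exactly 1 symbol in the tables (302 clusters, 276 tested), with predicted genes, clones, small RNAs and receptor families set aside. Up to 15 per direction were taken among calls, then by smallest p among genes of at least 1.5-fold without overlap, with up to 4 members of each list, up to 2 unnamed clusters per direction, and 5 genes of the difference between cell types. Fosl2, Sesn1, Ltf, Cebpe, Klf2, Tek, Selp, Insr and Il1r1, list members shown where relevant, and the microRNA clusters were chosen after their values were seen. Alternatives covered the level filter, the arrays fitted, sex, variance model, array weights, scaling and each left-out array. For 1 of the named higher genes the values are not reported here.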

Additional observations from a re-analysis of the deposited data

Results flagged for a closer look

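Trem1 stood out because the contrast of p110δ-/- with p110α-/- cells differed between HSC and LMPP by limma's interaction test. The difference was 4.59 on the log2 scale, with an adjusted p of 0.0158. The HSC arrays of both genotypes lay between 5.33 and 5.83, near the filter level of log2 4.95, where a lower level could hardly show. Values of p110α-/- LMPP were higher than those of p110δ-/- LMPP in 3 of 3 arrays. Over its alternatives the adjusted p ranged from 0.000843 to 0.0924.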

How the results depend on the processing

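The count of 1 call in HSC became 0 without the level filter (adjusted p of the chromosome 4 cluster 0.0594), with only the 6 single-knockout arrays, with only the 9 knockout arrays (0.102) and with sex as a covariate (0.0784), and it ran from 0 to 2 over the left-out arrays. Without p110δ-/- replicate 2 the call was another cluster, the unnamed TC1200002360.mm.1 (adjusted p 0.00966). The unnamed TC1500001191.mm.1 was called as well without p110α-/- replicate 2 (0.0498), and TC0100003621.mm.1 without DKO replicate 3 (0.0183). It stayed at 1 with the filter set on HSC arrays, the robust trended variance model, array weights, both rescalings and identical clusters counted 1 time. Without the level filter 4263 of 65956 clusters had an unadjusted p below 0.05. The share of these that was higher was 48.7% without the filter and 70.3% with the 6 arrays. The count for the difference between HSC and LMPP was 3 with sex as a covariate, 174 with array weights and 0 to 37 over the left-out arrays. With array weights the added genes included Acpp, Adam8, Hdc and Wfdc21. The LMPP count of 138 ran from 0 to 126 over the left-out arrays. Of the genes with a difference given in HSC, Klf2, Cebpe, Tek and Selp, all far from the threshold, changed sign under some alternative, and none of the genes and microRNA clusters with a printed HSC difference was called under any. Klf2 was at 0.10 with array weights and ran from -0.63 to 0.12 over the left-out arrays. Cebpe was at -0.031 with arrays centred on their median and ran from -0.000252 to 0.0948 over the left-out arrays, Tek from -0.019 to 0.40 and Selp from -0.37 to 0.0515. Fewer arrays in the fit leave fewer residual degrees of freedom; the cause of the other changes was not tested. No paired analysis was possible because the labels carry no shared replicate numbers.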
